A study of Mus musculus with 3 samples.

Results

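The NF-kB pathway was examined through 10 genes in chromatin occupancy maps of HDAC3 and KLF4 from mouse skin epithelium. The genes were Nfkbia, Nfkbiz, Tnfaip3, Card14, Rela, Relb, Nfkb1, Nfkb2, Ikbkb and Chuk. A peak was counted for a gene when the nearest end of any protein-coding gene (GRCm38) was an end of that gene, or when its centre lay within 1 kb of an end of the gene. The genes thereby held 57 of the 57936 deposited HDAC3 peaks and 52 of the 47155 deposited KLF4 peaks. Each of these peaks qualified as nearest, and the 1 kb clause added none. The genes are 10 of 21887 protein-coding genes.

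Epidermis from the back skin of E18.5 mouse embryos of wild-type genotype had been precipitated with an antibody to HDAC3 (1 library) and with one to KLF4 (1 library), and 1 library was input chromatin. HDAC3 is the histone deacetylase of the NCoR/SMRT corepressors. KLF4 is a transcription factor with zinc fingers that the skin barrier depends on. The number of embryos behind a library is not given in the sources used here. A higher peak can come from more cells or from more occupancy per cell, and these cannot be told apart. Replicate spread could not be measured with 1 library for each antibody, and no test was made between libraries.

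NF-kB is a family of dimeric transcription factors that inhibitory IkB proteins hold in the cytoplasm. Signals from cytokine receptors or CARD scaffolds activate the IkB kinase, the inhibitor is degraded and the dimers enter the nucleus, where they switch on inflammatory genes and their own inhibitors. In epidermis the pathway is known for its part in psoriasis-like inflammation, and CARD14 is the scaffold that acts in keratinocytes.

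The promoter sequences of these genes are shown first, because 1 of them lay under a peak of each factor. RefSeq promoter windows (GRCm38.p6, 250 bases before to 50 after a transcription start) matched 5 of the 10 genes, in 8 windows: Chuk, Nfkb2, Nfkbia, Rela and Tnfaip3. Card14, Ikbkb, Nfkb1, Nfkbiz and Relb had no entry. The Nfkbia peaks, chr12:55492669-55492853 for HDAC3 and chr12:55492670-55492854 for KLF4, lay wholly within the Nfkbia window. They covered bases 206 to 22 and 207 to 23 before the start. The 250 bases before the Nfkbia start (chr12:55492648-55492897, minus strand) are given 5′ to 3′, with a match to the kappa-B motif, the consensus site bound by NF-kB dimers, in capitals.
Nfkbia: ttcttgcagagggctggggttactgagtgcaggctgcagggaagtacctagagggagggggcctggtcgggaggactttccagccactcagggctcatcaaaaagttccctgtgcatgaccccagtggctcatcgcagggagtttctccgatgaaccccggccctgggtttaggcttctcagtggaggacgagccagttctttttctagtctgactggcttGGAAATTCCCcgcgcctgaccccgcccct
The kappa-B match spanned bases 29 to 20 before the start and so straddled the edge of both peak intervals.

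Matches to the same motif stood in the windows of Nfkb2 and Tnfaip3 as well. They are shown with up to 10 flanking bases, because these are genes that NF-kB is known to induce. Matched letters are in capitals, each line reads in the direction of the gene, and the first Nfkb2 line holds a pair of overlapping matches. Nfkb2 has 3 listed starts and is on the plus strand, and Tnfaip3 is on the minus strand.
Nfkb2, chr19:46304688-46304718: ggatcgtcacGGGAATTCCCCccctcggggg
Nfkb2, chr19:46304716-46304736: ggggccgaaaGGGGCTTTCCc
Nfkb2, chr19:46305449-46305478: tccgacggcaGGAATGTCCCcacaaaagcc
Nfkb2, chr19:46305695-46305724: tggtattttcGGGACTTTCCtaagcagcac
Tnfaip3, chr10:19015516-19015545: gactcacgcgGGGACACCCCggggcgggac
Tnfaip3, chr10:19015411-19015432: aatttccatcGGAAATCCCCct
No HDAC3 or KLF4 peak reached the windows that hold these Nfkb2 and Tnfaip3 sites. The Chuk and Rela windows held no kappa-B match. Among 21263 promoter windows of protein-coding genes, 9.25% held 1 or more, searched on both strands. The KLF motif CACCC, read with its reverse complement GGGTG, was absent from the Nfkbia window, and 59.5% of all windows held it. No other form of a KLF site was searched. The AP-1 motif TGANTCA was also absent from the Nfkbia window, against 6.99% of windows with a match, and in the Tnfaip3 window at the outer start it was present. In an Nfkb2 window the AP-1 and CACCC matches overlapped, and in Tnfaip3 the CACCC match lay within the first kappa-B match shown. A match of letters is a description of the sequence and not a measured site.

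At gene ends, the 10 genes carried HDAC3 in 5 cases and KLF4 in 4. The background over protein-coding genes was 18.9% for HDAC3 and 23.1% for KLF4, counting peaks centred within 1 kb of either annotated end. HDAC3 peaks were at Card14, Nfkbia, Tnfaip3, Relb and Nfkb1, and KLF4 peaks at Card14, Nfkbia, Relb and Nfkb2. Card14, Nfkbia and Relb had both factors, which is 3 of 10 genes, against 10.3% of all genes. Nfkbiz, Rela, Ikbkb and Chuk had neither, which is 4 of 10, against 68.3% of all genes. Within 5 kb, 7 of the 10 genes had HDAC3, against 46.2% of all genes, and 6 had KLF4, against 46.0%. At any distance, 8 of the 10 were nearest to an HDAC3 peak, against 64.8% of all genes, and 9 to a KLF4 peak, against 59.2%. With no replicate and 10 genes chosen by name, with earlier results of these data known, these counts describe the genes and carry no test. Keeping only peaks at least 8-fold over input left gene-end HDAC3 at 1 of the 10 genes and KLF4 at 2, with Card14 the gene that had both. The share of all genes under that filter is not given here, so these counts have no background beside them.

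Counted over peaks, gene ends were a small part of the pattern. Of the 57 HDAC3 peaks, 6 lay within 1 kb of an end of these genes, and of the 52 KLF4 peaks 5 did. Of all peaks, 6.97% for HDAC3 and 10.8% for KLF4 lay that close to a protein-coding gene end. The sequence nearer to these genes than to any other protein-coding gene spans 992 kb. It held 5.75 HDAC3 peaks and 5.24 KLF4 peaks per 100 kb, against 2.15 and 1.75 over all protein-coding genes.

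**Figure D1:**
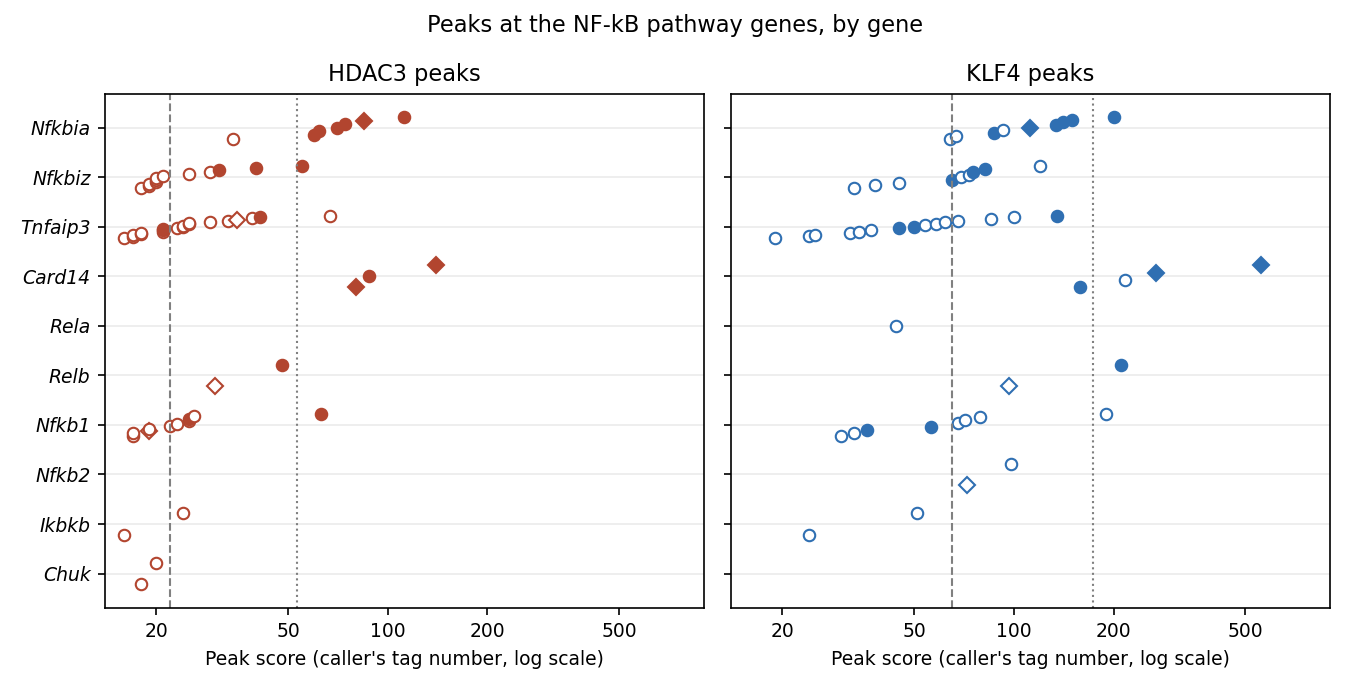
Score of every HDAC3 peak (left) and KLF4 peak (right) at the 10 genes, on a log axis. Diamonds lie within 1 kb of a gene end, filled symbols overlap a peak of the other factor, the dashed line is the median of the whole list (22 for HDAC3, 65 for KLF4) and the dotted line the start of its highest decile (53 and 173). The Card14 gene-end peaks score 140 and 557, 6 of the 7 Nfkbia peaks of HDAC3 lie right of the dotted line, and no peak of Rela, Ikbkb or Chuk lies right of a dotted line.

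The inhibitor genes Nfkbia, Nfkbiz and Tnfaip3 lie in 75.0, 273 and 257 kb of sequence nearest to them, a large part of the 992 kb of the set. Per 100 kb they held 9.33, 4.4 and 7.39 HDAC3 peaks and 12.0, 3.3 and 5.84 KLF4 peaks, so that Nfkbiz was below the density of the set for both factors. Nfkbia (chr12:55489409-55492647) encodes IkB-alpha, the inhibitor that retains NF-kB in the cytoplasm and is itself induced by it. It had 7 HDAC3 peaks and 9 KLF4 peaks, all outside the gene body, and 6 sites carried both factors. The HDAC3 scores were 34, 60, 62, 70, 74, 85 and 112, and 6 of these 7 peaks belonged to the highest decile of the HDAC3 list, which starts at 53. The KLF4 scores lay between 64 and 200 with a median of 112, and 1 of them reached the highest decile of its list. All 7 HDAC3 scores were above the list median of 22, and all but the lowest of the KLF4 scores were above the KLF4 median of 65.

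The site before the Nfkbia start had 16.7 HDAC3 tags and 17.9 KLF4 tags per 10000000 tags of the library, a scale called normalised tags from here on, and the peak centres were 1 bp apart. The fold over input, a ratio from the authors' caller as are all folds and scores here, was 5.17 for HDAC3 (2.61 to 11.6) and 5.53 for KLF4 (2.81 to 12.4). The ranges in brackets are exact 95% intervals from the tags and the input tags, cover counting error only, and run high because peaks were kept for passing 4-fold. The input itself held 9 tags at this site, against 2.57 for an even spread, and its part in the result was not tested. Among genes with a gene-end peak, Nfkbia ranked 178 of 4143 for HDAC3 and 1293 of 5051 for KLF4 by score.

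Further shared sites flanked Nfkbia on both sides. The highest HDAC3 peak of the locus, chr12:55497831-55498015, lay 5276 bp before the start with 28.4 normalised tags and was 11.3-fold over input (5.34 to 28.5). The KLF4 peak on it had 23.3 normalised tags and was 9.31-fold over input. A second upstream pair lay 2675 bp before the start for HDAC3 and 2667 bp for KLF4, with 16.2 and 24.6 tags. Beyond the other end, 3 pairs followed, with HDAC3 centres at 17919, 22927 and 24424 bp from the gene, and the middle one held the highest KLF4 peak of the locus (score 200, chr12:55466429-55466613, 34.7 tags). Input tags were 12 and 11 at that middle pair. Every pair at Nfkbia had its centres within 62 bp.

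Tnfaip3 (chr10:19000910-19015410) encodes A20, the ubiquitin-editing enzyme that shuts down NF-kB signalling. It had 19 HDAC3 peaks and 15 KLF4 peaks, spread over 257 kb that are nearer to Tnfaip3 than to other protein-coding genes. Of all protein-coding genes, 320 had at least 19 HDAC3 peaks counted this way and 343 at least 15 KLF4 peaks. Of the 19 HDAC3 peaks, 3 overlapped a KLF4 peak, against 25.8% of all HDAC3 peaks. The median HDAC3 score was 24 and the median KLF4 score 50, against 22 and 65 for the whole lists, so their height was near or below the middle of the lists.

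The gene-end peak of Tnfaip3, chr10:19014468-19014652, was HDAC3 alone and lay 850 bp inside the gene after the outer start. It had a score of 35, 7.57 normalised tags and a 5.26-fold ratio over input (1.91 to 20.2), and the nearest KLF4 centre was 5011 bp away. A second HDAC3 peak (score 33, 11.0-fold) was centred 134 bp after the inner RefSeq start of the gene. The highest HDAC3 peak of the locus lay 47230 bp before the outer start, chr10:19062548-19062732. It had a score of 67, 14.6 normalised tags and 2 input tags, was 21.0-fold over input (5.45 to 171) and had no KLF4 peak within 9766 bp. The highest KLF4 peak, chr10:18987943-18988127, lay 12875 bp outside the other end with a score of 135 and 22.3 tags, and overlapped an HDAC3 peak of score 41.

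Nfkbiz (chr16:55811375-55838954) encodes IkB-zeta, a nuclear IkB protein that works with NF-kB at secondary response genes in keratinocytes. It had no peak within 1 kb of its ends, but 12 HDAC3 and 9 KLF4 peaks were nearest to it. The closest were a pair 1288 bp (HDAC3, score 40) and 1282 bp (KLF4, score 75) outside the gene, at chr16:55809995-55810179 and chr16:55810001-55810185. A further pair lay 5107 bp out for HDAC3 (score 55, 11.8 tags, 4.28-fold) and 5048 bp for KLF4 (score 82, 13.3 tags, 7.42-fold). The highest KLF4 peak, of score 120, stood between them at 3634 bp with no HDAC3 peak on it. The remaining HDAC3 peaks reached out to 187174 bp and had scores from 18 to 31.

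**Figure D2:**
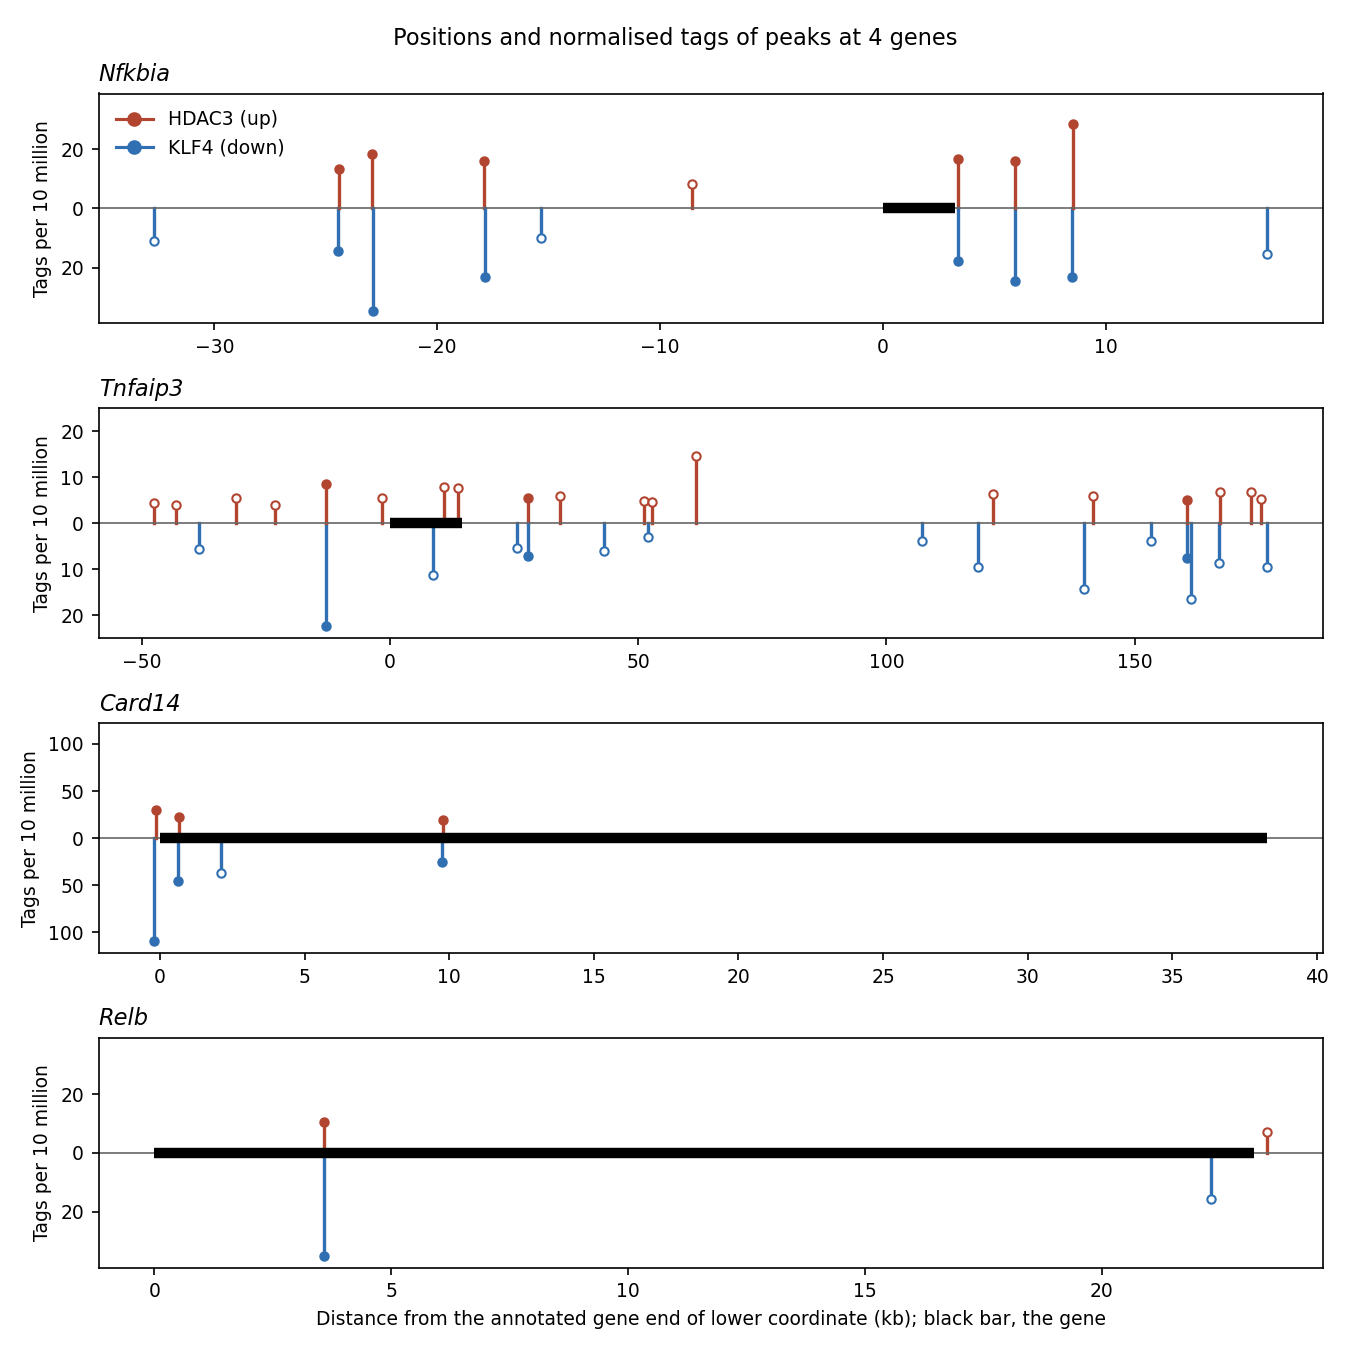
Peaks at Nfkbia, Tnfaip3, Card14 and Relb, as distance in kb from the gene end of lower coordinate. HDAC3 normalised tags point up, KLF4 tags point down, filled heads overlap a peak of the other factor and the black bar is the gene. The 6 shared sites of Nfkbia lie on both sides of the gene, the many sites of Tnfaip3 are mostly open, and the tallest line is the KLF4 peak of 109.1 tags at Card14.

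Card14 (chr11:119307093-119345379) carried the highest peaks of the set. Its product recruits BCL10 and MALT1 and so activates the IkB kinase. HDAC3 had 3 peaks and KLF4 4 nearest to Card14, and each of these HDAC3 peaks overlapped a KLF4 peak. Outside the gene end of lower coordinate, 144 bp (HDAC3) and 197 bp (KLF4) from it, lay a shared site. The HDAC3 peak chr11:119306857-119307041 had 29.9 normalised tags and was 41.8-fold over input (11.3 to 346). The KLF4 peak on it, chr11:119306804-119306988, had 109.1 tags and was 75.8-fold over input (29.5 to 279). Input tags were 2 and 4, so that the folds are imprecise, and no other protein-coding gene end lay within 6853 bp.

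A second Card14 pair lay inside the gene, 663 bp from the end for HDAC3 and 610 bp for KLF4. It had 22.2 and 45.9 tags and was 4.74- and 11.7-fold over 13 and 11 input tags, an input above the even spread of 2.57 whose part in the result was not tested. The third pair lay 9802 bp (HDAC3, score 88) and 9737 bp (KLF4, score 158) inside. The KLF4 peak of score 217, 2092 bp inside, had no HDAC3 centre within 1429 bp. Inside the gene body, 1 more HDAC3 peak and 2 more KLF4 peaks were nearer to an end of another gene.

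By gene-end score Card14 ranked 16 of 4143 for HDAC3 and 12 of 5051 for KLF4. On both ranks together it was number 4 of the 2250 genes with both factors, against 449 for Nfkbia and 1367 for Relb. The genes outside the set closest to Card14 by the summed absolute log2 difference of both gene-end scores were Metrnl (144 and 487, difference 0.23), Hebp2 (121 and 543, 0.25) and Tet3 (124 and 521, 0.27). This likeness rests on 1 library per factor.

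The NF-kB subunits differed in what they carried. Relb (chr7:19606217-19629438), which pairs with p52 in the alternative pathway, had 2 HDAC3 and 2 KLF4 peaks. A shared site inside the gene, 3583 bp (HDAC3) and 3578 bp (KLF4) from an end, had 10.4 and 35.0 normalised tags. The HDAC3 peak there was 5.77-fold over input (2.34 to 18.4) and the KLF4 peak, chr7:19609703-19609887, 19.4-fold (8.22 to 60.6), with 5 input tags each. At the end of higher coordinate the HDAC3 peak (score 30, 276 bp outside) and the KLF4 peak (score 97, 917 bp inside) were separate sites 1193 bp apart.

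Nfkb1 (chr3:135584655-135691969), which encodes p105 and its product p50, had 10 HDAC3 and 8 KLF4 peaks, with 2 shared sites. Its gene-end peak was HDAC3 alone, 31 bp inside the gene. It had a score of 19, only 3 tags above the HDAC3 threshold of 16, and was 4.08-fold over input (1.25 to 21.1). Its highest KLF4 peak, chr3:135590610-135590794, lay 6047 bp inside the gene with 32.1 normalised tags and was 29.7-fold over 3 input tags, and the nearest HDAC3 centre was 17086 bp away. The highest HDAC3 peak (score 63, 9.05-fold) lay 41404 bp outside the gene on a KLF4 peak of score 56.

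Nfkb2 (chr19:46300994-46312400), which encodes p100 and p52, had no HDAC3 peak and 2 KLF4 peaks. One lay 421 bp outside the annotated gene (score 72, 11.7 tags, 6.51-fold), chr19:46300481-46300665. The other, chr19:46304239-46304423, was centred at -406 bp from a RefSeq start (score 98, 15.5 tags, 5.37-fold), the start whose window holds the first kappa-B line shown for Nfkb2. Rela (chr19:5637442-5648134), which encodes the transactivating subunit p65, had no HDAC3 peak and 1 KLF4 peak, 3676 bp outside the gene (score 44, 7.33 tags, 10.2-fold with 2 input tags). A gene without a called peak may still be occupied below the caller's threshold, which is 16 tags for HDAC3 and 19 for KLF4.

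Of the IkB kinase genes, Ikbkb and Chuk had no peak within 1 kb of an end. Ikbkg, which is outside the 10 genes, is described below. Ikbkb (chr8:22659205-22706589), the kinase subunit that phosphorylates IkB-alpha, had 2 HDAC3 peaks of score 16 and 24 and 2 KLF4 peaks of score 24 and 51. None of these overlapped, and the nearest lay 12411 bp from an end. Chuk (chr19:44073334-44107505), the IKK-alpha gene, had 2 HDAC3 peaks of score 18 and 20 inside the gene and no KLF4 peak. Its product is known to be needed for keratinocyte differentiation in mice. The median protein-coding gene was nearest to 1 peak of each factor. The HDAC3 scores of 16, 18 and 20 were within 4 tags of the caller's threshold. Over the 10 genes, 18 HDAC3 peaks (31.6%) were that close to the threshold, against 44.4% of all HDAC3 peaks, and 1 KLF4 peak (1.92%) was, against 6.01% of all KLF4 peaks.

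Whether the factors met at the same sites was asked across the peaks of all 10 genes. Of the 57 HDAC3 peaks, 18 shared 1 or more bases with a KLF4 peak, which is 31.6% (exact Clopper-Pearson 95% interval 19.9 to 45.2), against 25.8% of all HDAC3 peaks. Of the 52 KLF4 peaks, 18 overlapped an HDAC3 peak, 34.6% (22.0 to 49.1), against 31.7% of all KLF4 peaks. Both background shares lie within these intervals. The 18 pairs were at 6 genes, with 6 at Nfkbia, 3 each at Card14, Nfkbiz and Tnfaip3, 2 at Nfkb1 and 1 at Relb. The median distance between paired centres was 25 bp and the largest 76 bp. Peaks of 1 gene share their neighbourhood and are not independent. The intervals count each peak as a separate draw, so they are likely too narrow and serve as no test.

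Among the peaks of these genes, shared sites had the higher median scores. The matching medians over the whole lists are not given here. Over the whole lists, overlap was 25.8% of HDAC3 and 31.7% of KLF4 peaks, and higher in the highest deciles (86.5% and 68.4%). The median score of HDAC3 peaks was 61 on a KLF4 peak (21 to 140) and 21 elsewhere (16 to 67). For KLF4 peaks it was 123 on an HDAC3 peak (36 to 557) and 63 elsewhere (19 to 217). The ranges overlap in both lists. Of the 12 HDAC3 peaks in the highest decile of the list, 11 overlapped a KLF4 peak, against 86.5% of all such peaks. The exception was the distal Tnfaip3 peak of score 67. Of the 6 KLF4 peaks in the highest decile, 4 overlapped an HDAC3 peak, against 68.4% of all such peaks, and the 2 others were those at Nfkb1 and Card14 described above. The highest decile, counting ties, took in 21.1% of the HDAC3 peaks and 11.5% of the KLF4 peaks of these genes, against 10.2% and 10.1% of the whole lists. Most of these HDAC3 peaks came from 2 genes, with 6 of the 7 Nfkbia peaks and all 3 Card14 peaks. Nfkbiz, Nfkb1 and Tnfaip3 had 1 each and the other genes none, so the HDAC3 share does not describe the set as a whole.

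Normalised tags at the shared sites were set side by side. HDAC3 had a median of 0.706 times the KLF4 tags over the 18 pairs (quartiles 0.565 and 0.914), against 0.652 over all 14967 overlapping pairs (0.441 and 0.917). HDAC3 was the lower in 16 of 18 pairs, against 80.3% of all pairs. The exceptions were the Nfkbia site 5276 bp before the start (28.4 HDAC3 and 23.3 KLF4 tags) and the Nfkb1 site 41404 bp outside the gene (13.0 HDAC3 and 9.44 KLF4 tags). The antibodies differ, so that the ratio says nothing of the amount of either protein.

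**Figure D3:**
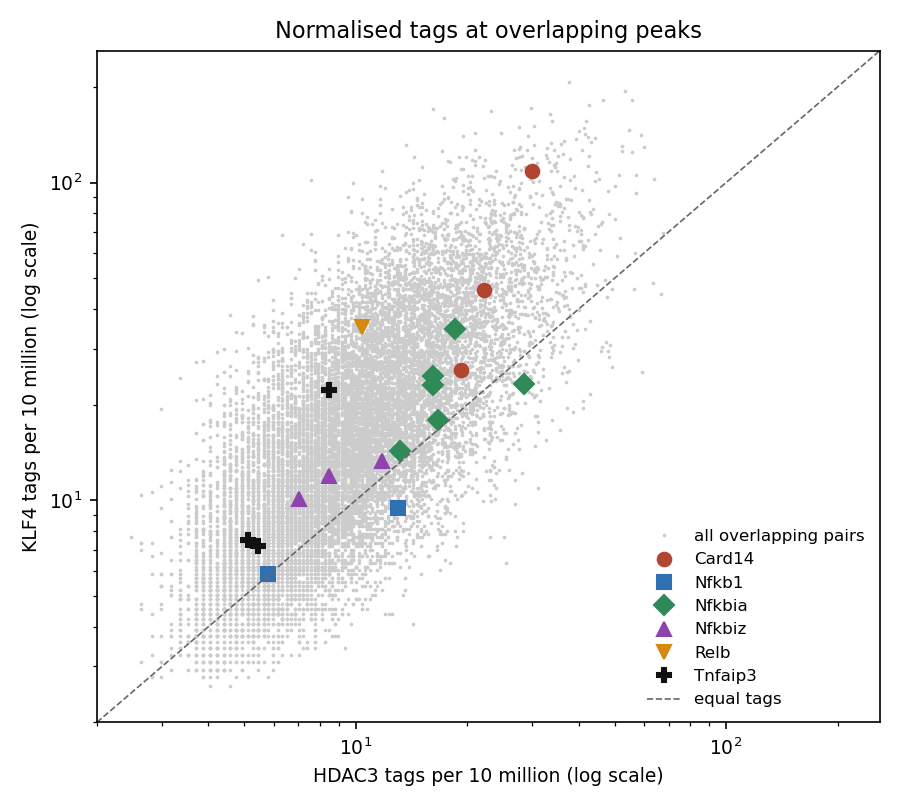
KLF4 (vertical) against HDAC3 (horizontal) in normalised tags at overlapping peaks, both on log axes, with the 18 pairs of the described genes over all 14967 pairs in grey. The dashed line marks equal tags. The coloured pairs lie within the grey cloud, Card14 reaches its upper part at 29.9 and 109.1 tags, and 1 Nfkbia pair and 1 Nfkb1 pair fall below the line.

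Other genes of the pathway were counted from a list of 54 drawn up by role in the pathway, with earlier results of these data known. HDAC3 gene-end peaks were at 17 of them (31.5%, against 18.9% of all genes), KLF4 peaks at 19 (35.2%, against 23.1%) and both at 10 (against 10.3%). Of 15 receptors and adaptors, 1 had HDAC3 and 3 had KLF4 within 1 kb of an end. Within 5 kb these numbers were 9 and 11 of 15, against 46.2% and 46.0% of all genes, so their low count for HDAC3 held for the narrow window only. The gene with HDAC3 within 1 kb was Tnfrsf1a, the main TNF receptor gene, with 18.0 normalised tags, 24.96-fold over input and no KLF4 peak on it. Its KLF4 gene-end peak (score 64) was at another site.

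Of 14 induced targets, 6 had HDAC3 (42.9%, against 18.9% of all genes) and 5 KLF4 (35.7%, against 23.1%) within 1 kb. Within 5 kb, 6 and 8 of the 14 did, against 46.2% and 46.0% of all genes. Differences between the groups were not tested. Ccl20, a chemokine gene of keratinocytes, had the highest HDAC3 score of the list within 1 kb of a gene end (109, 25.7 tags, 18.2-fold) with a KLF4 peak of score 90 on it. Ier3, an immediate early gene, had peaks of score 71 and 112 centred 2 bp apart. Gadd45b, a stress response gene, had HDAC3 alone within 1 kb of its ends (71), and a KLF4 peak of score 203 lay 1561 bp outside an end. Of 10 ubiquitin enzymes and inhibitors, 4 had HDAC3 and 3 KLF4 within 1 kb, and 8 had HDAC3 and 8 KLF4 within 5 kb. Rnf31, the catalytic subunit of the linear ubiquitin ligase complex, had its highest HDAC3 and KLF4 gene-end scores (80 and 204) at different sites, and both peaks were nearer to the end of another gene. The HDAC3 peak of Rnf31 did overlap a further KLF4 peak, centred 104 bp away. That HDAC3 peak was 4.24-fold over 12 input tags, close to the 4-fold limit of the caller. Cyld, a deubiquitinase gene, had 21 and 71 at sites that did not overlap.

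Of 5 further kinases, 2 had HDAC3 and 3 KLF4 within 1 kb of an end, against 18.9% and 23.1% of all genes. Within 5 kb, 3 and 4 of the 5 did, against 46.2% and 46.0% of all genes. Ikbkg, the regulatory subunit NEMO, and Ikbke had KLF4 alone (scores 111 and 116), and Tbk1 had both (37 and 62). Of 5 CARD scaffold genes and their partners, 2 had HDAC3 and 2 KLF4 within 1 kb, and 3 and 4 did within 5 kb. Card9 held the highest KLF4 score of the list within 1 kb of a gene end (290, 51.3 normalised tags, 15.9-fold) with no HDAC3 centre within 45105 bp, and Bcl10, the partner of CARD14, had both (44 and 107). Of 5 further NF-kB and IkB genes, 2 had HDAC3 and 3 KLF4 within 1 kb, and 4 and 5 did within 5 kb. Nfkbib, the IkB-beta gene, had both within 1 kb (38 and 84). Birc2 (18 and 33) and Icam1 (34 and 49) complete the genes with both factors, at separate sites in each gene.

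**Figure D4:**
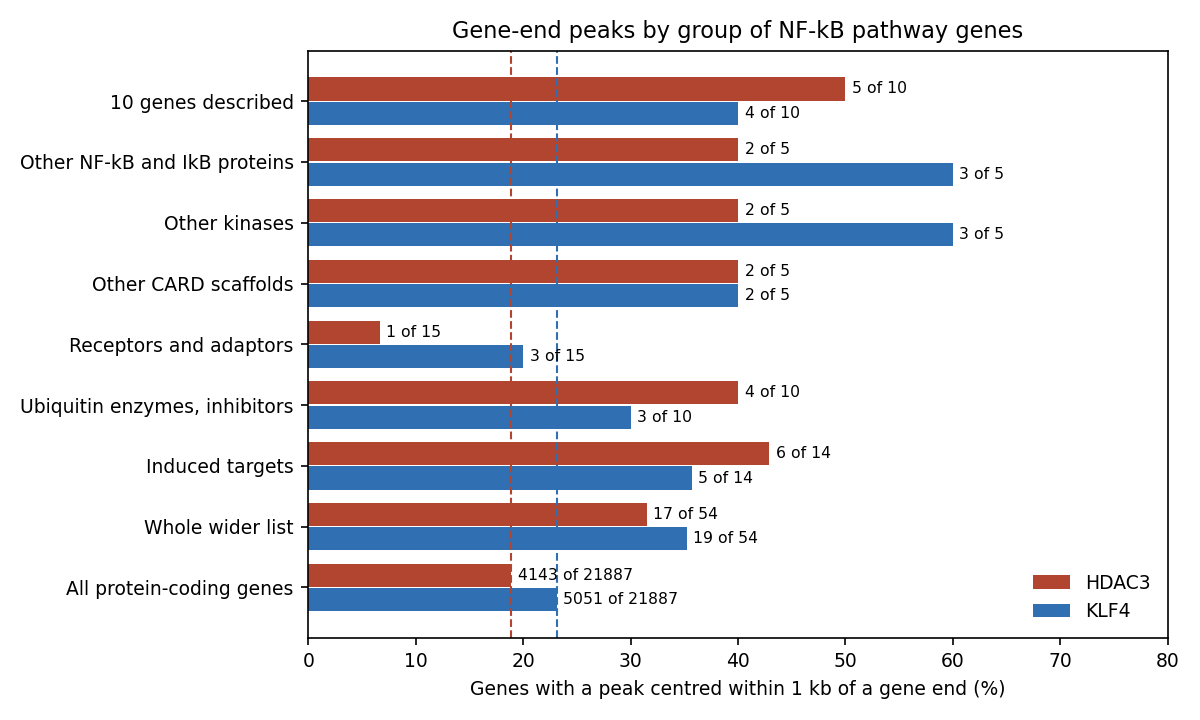
Share of genes with an HDAC3 or KLF4 peak centred within 1 kb of a gene end, for the 10 genes described, 6 groups of other pathway genes, the whole wider list and all protein-coding genes. Numbers beside the bars are counts, and dashed lines mark 18.9% (HDAC3) and 23.1% (KLF4) of all genes. The receptors and adaptors, with 1 and 3 of 15 genes, lie below both lines.

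Depth was similar in both libraries, with 56787485 tags for HDAC3 and 61432711 for KLF4, and 3.95% and 6.81% of these lay in peaks. Of 7 keratinocyte marker genes, HDAC3 was at the ends of 3 and KLF4 at the ends of 5, against 2 of 9 and 2 of 9 markers of melanocytes, endothelium, immune cells and fibroblasts. The shares over all genes were 18.9% for HDAC3 and 23.1% for KLF4, and the 22.2% of the other cell types' markers was close to both. Peaks measure occupancy and not expression, so that this does not check the cell types of the sample.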

How the data were processed

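Peak lists of an HDAC3 and a KLF4 chromatin immunoprecipitation from dorsal epidermis of E18.5 embryos were analysed, with 1 library per antibody and a shared input. Samples were grouped by the titles in the labels. The submitters' processing notes name the tools bcl2fastq, STAR and HOMER and the build GRCm38.p5, without versions. Peaks of 185 bp were called, per the file headers, separately for each library at a false discovery rate of 0.001, with 4-fold enrichment over input and over the surrounding 10000 bp. The deposited tag signal is per 10000000 tags of a library. The score, the fold (a ratio over input or local tags), the p-value of each peak and the focus ratio (a fraction) were computed by the authors' caller; the p-values and the fraction were not analysed. Input tags in the deposited lists are whole numbers or 0.5, and 0.5 was read as no tag.

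Gene ends came from a RefSeq table of GRCm38.p6 that gives no strand, exons or introns; strand was taken from the promoter table where it lists the gene. Peaks overlapped when centres were at most 184 bp apart. A tag number per peak was recovered from the signal and the library total for the intervals, which condition on the sum of precipitation and input tags. Python 3.11.15, pandas 2.3.3, numpy 2.4.6, scipy 1.17.1 and matplotlib 3.10.9 were used, and the assignment steps were tested on simulated peaks. All 10 genes were named with their highest and gene-end peaks, and of the wider list the 5 highest gene-end scores per factor and every gene with both. The genes and lists were chosen with earlier results of these data known. Alternatives were a 5 kb window, peaks at least 8-fold over input, the higher 50% of each list, transcription starts alone, genes of any type and closer overlap.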

Additional observations from a re-analysis of the deposited data

How the results depend on the processing

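No paired analysis was possible because each antibody had 1 library, and no replicate could be left out. Of 36 alternative values, 16 stayed close and 20 moved. With peaks at least 8-fold over input, gene-end peaks were at 1 (HDAC3), 2 (KLF4) and 1 (both) of the 10 genes, and at 9 and 11 wider genes. That setting assigned 15 HDAC3 and 22 KLF4 peaks, and 18.2% of the KLF4 peaks overlapped HDAC3. With the higher 50% of each list, 35 HDAC3 and 30 KLF4 peaks were assigned and 11 wider genes had KLF4. Nearest ends of genes of any type left 35 and 31 peaks. Counting transcription starts alone, known for 5 of the 10 genes, gave 2 (HDAC3), 2 (KLF4) and 1 (both). A 5 kb window gave 33 wider genes for HDAC3 and 40 for KLF4, where 46.2% and 46.0% of all genes have a peak. With centres at most 50 bp apart, overlap was 19.3% for HDAC3 and 21.2% for KLF4. The shares of 25.8% and 31.7% over all peaks count any shared base and are not the background for this limit. Fewer peaks or genes enter most of these settings by construction. Except for the 5 kb window, shares over all genes or all peaks at these settings are not given. Input of a few tags per peak limits each fold.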

Other observations

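Some pathway genes had their strongest peaks within 5 kb but outside the 1 kb window, and they were chosen after their values were seen. Zc3h12a, which encodes the RNase regnase-1 that degrades inflammatory mRNAs, had a shared site inside the gene, with the HDAC3 peak 4400 bp and the KLF4 peak 4337 bp from an end. The HDAC3 peak, chr4:125122722-125122906, had a score of 150, 36.3 tags per 10000000 and was 17.0-fold over input. The KLF4 peak, chr4:125122659-125122843, had a score of 606, 123.2 tags and was 38.3-fold over input. Both exceed the corresponding peaks of Card14 in score (140 and 557) and in tags (29.9 and 109.1). In fold over input both are below those of Card14 (41.8 and 75.8). Bcl3, a nuclear IkB gene, had a shared site 4136 bp inside the gene for HDAC3 (score 76, 40.6-fold over 1 input tag) and 4266 bp for KLF4 (score 231, 53.1-fold over 2 input tags).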
